A study of Mus musculus with 70 samples.

Results

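Il23a, Il12a, Il12b, Ebi3, Il27 and Il10 encode the subunits of the IL-12 cytokine family and the cytokine IL-10. They were followed by symbol in CD45+ cells of mouse B16F10 melanomas after histotripsy, as 6 of the 55487 gene names in each count table. The genes were selected on their counts in these same CD45+ libraries. Their group differences are therefore given as descriptions without p-values, and nothing is read from whether they pass the test over all genes. The libraries were 3′ end RNASeq (QuantSeq) of CD45+ cells, the hematopoietic cells, and of CD45- cells, flow-sorted from subcutaneous flank tumors grown from B16F10, a mouse melanoma cell line, in male and female C57BL/6 mice. Histotripsy breaks tissue mechanically with focused ultrasound pulses. Tumors were grown on both flanks, and the ablation of the treated tumor was partial. Tumors were histotripsy-treated, histotripsy-abscopal (the tumor left untreated on the opposite flank) or control (after a sham procedure). RNA was taken 3 or 7 days after the procedure. Of the CD45+ libraries, 4 were from control tumors, 6 from treated and 7 from abscopal tumors of day 3, and the numbers on day 7 were 10, 3 and 4. The CD45- libraries numbered 4, 7 and 7 on day 3 and 11, 3 and 4 on day 7. Mice were assigned to groups without randomization, and no label ties a library to a mouse, so that treated and abscopal tumors may come from the same animals and every p-value below covers only the spread between these libraries.

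The 34 CD45+ libraries held 887798 to 2824959 counts each and the 36 CD45- libraries 1080212 to 3820705. Ptprc, which encodes CD45, had 929 to 2916 counts in each CD45+ library and 0 to 3 in each CD45- library. Histotripsy-abscopal replicates 1 and 4 of day 3 stood apart among the CD45+ libraries in the summed level of 5 melanoma markers, at 1111 and 2124 CPM (counts scaled to a library total of 1000000). Histotripsy-treated replicate 3 of day 3 stood apart in the summed level of 7 neutrophil markers, at 26818 CPM. The limit quoted below for genes with 0 counts covers counting error only. SDs and standard errors also hold the spread between libraries.

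IL-12 family cytokines are pairs of an alpha and a beta chain that share subunits. The p40 chain encoded by Il12b pairs with p35 (Il12a) to form IL-12, which drives type 1 T cell and NK cell responses and interferon gamma, and with p19 (Il23a) to form IL-23, which sustains type 17 cells. Ebi3 pairs with the p28 chain (Il27) to form IL-27. Macrophages, dendritic cells and, for some members, neutrophils are known sources of these transcripts. IL-10 belongs to another cytokine family, limits the production of inflammatory cytokines by myeloid cells, and is made by macrophages and by several T cell subsets.

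In the GENCODE M21 annotation of GRCm38, Il23a lies on chr10:128296139-128298752 (minus strand), Il12b on chr11:44400063-44414033 (plus) and Il10 on chr1:131019845-131024974 (plus). Il12a lies on chr3:68690644-68698547 (plus), Ebi3 on chr17:55952640-55957022 (plus) and Il27 on chr7:126589010-126594941 (minus). Reads were counted over genes. Il23a, Il12a, Il12b and Il10 overlap no other annotated gene, whereas Ebi3 overlaps Gm16712 and Il27 overlaps Apobr, and the strand setting of the counting is not given in the sources used here, so reads of these overlapping genes cannot be told apart.

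The RefSeq promoter table used here (GRCm38.p6) held 3 of the 6 genes, Il12a, Il12b and Ebi3. The 250 bases upstream of the start are shown for the beta chains, p40 and Ebi3, because levels of the NF-kappaB and C/EBP family factors that act on cytokine promoters are given below. Capitals mark the 1 match to the kappaB motif, searched on both strands, and the Il12b window has none.
Il12b, chr11:44399813-44400062, plus strand: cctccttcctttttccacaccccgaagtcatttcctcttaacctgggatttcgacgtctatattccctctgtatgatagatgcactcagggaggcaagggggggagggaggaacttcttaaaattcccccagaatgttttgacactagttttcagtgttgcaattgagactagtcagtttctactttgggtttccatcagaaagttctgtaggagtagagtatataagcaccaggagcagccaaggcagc
Ebi3, chr17:55952373-55952622, plus strand: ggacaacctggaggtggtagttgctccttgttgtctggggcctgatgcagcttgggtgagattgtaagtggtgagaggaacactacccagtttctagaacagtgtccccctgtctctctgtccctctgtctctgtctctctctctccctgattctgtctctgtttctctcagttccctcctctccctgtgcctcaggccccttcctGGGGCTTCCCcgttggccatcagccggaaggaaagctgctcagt
The kappaB match of Ebi3 lies 44 to 35 bases before the start, and 3.90% of 32851 promoter windows of this length held such a match. The AP-1 letters TGANTCA and the C/EBP letters TTNCNNAA, searched on both strands, were in neither window and in 6.75% and 36.8% of all windows. A match is a run of letters and not a shown binding site. A window without a match is not shown to lack sites, since sites that differ from the letters are missed.

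Il23a was the member whose level differed most between groups on day 3. In control tumors the 4 libraries held 2.89, 8.82, 19.6 and 35.5 CPM. In histotripsy-treated tumors the 6 libraries held 45.5, 184, 272, 103, 49.9 and 209 CPM. The 7 histotripsy-abscopal libraries ranged from 6.34 to 23.7 CPM, with a median of 13.2. Every histotripsy-treated library was above every control and every histotripsy-abscopal library, and the latter groups overlapped. The group means were 144 ± 92.3 CPM (SD, n = 6) for treated, 16.7 ± 14.3 (n = 4) for control and 13.5 ± 7.05 (n = 7) for abscopal tumors. Of all 10264 genes tested on day 3, 2.34% had every treated library above every control library and 1.01% had every treated library above every abscopal library. Nothing is read from these shares for Il23a, since this pattern chose the gene.

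In the edgeR fit across all genes, which scales libraries by the trimmed mean of M values (TMM), the log2 fold change of Il23a on day 3 was 3.31 ± 0.59 (standard error) for treated against control tumors and 3.56 ± 0.48 for treated against abscopal tumors. For abscopal against control it was -0.25 ± 0.58. These contrasts share libraries and are not independent of each other. Without treated replicate 3, the library richest in neutrophil markers, the treated differences were 2.91 against control and 3.17 against abscopal tumors. These were the lowest of 24 alternative settings of each contrast, and the highest were 4.02 and 3.80. The abscopal difference took the other sign, 0.46, without control replicate 4.

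On day 7 the Il23a pattern was not that of day 3. The 10 control libraries ranged from 8.66 to 136.6 CPM with a median of 40.6, and replicates 9 and 10 were the highest at 133 and 136.6. The 3 histotripsy-treated libraries held 21.9, 54.5 and 14.7 CPM. The 4 histotripsy-abscopal libraries held 2.35, 5.01, 49.2 and 14.5 CPM. All treated libraries lay within the control range, and abscopal replicates 1 and 2 were below every control library. The log2 fold change was -1.002 ± 0.70 for treated against control, -1.64 ± 0.69 for abscopal against control and 0.64 ± 0.87 for treated against abscopal tumors. Without control replicates 9 and 10 the first 2 values were -0.33 and -0.97, and without abscopal replicate 3 the abscopal difference from control was -3.16 and the treated difference from abscopal tumors was 2.14.

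Ordered by mean over both days, Il23a was at 144 CPM in treated tumors of day 3, 54.2 ± 45.6 in controls of day 7, 30.4 ± 21.2 in treated tumors of day 7, 17.8 ± 21.6 in abscopal tumors of day 7, 16.7 in controls of day 3 and 13.5 in abscopal tumors of day 3. The ranges of each pair of neighbors in this order overlapped. The days were separate tables, and no test was made across them.

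**Figure D1:**
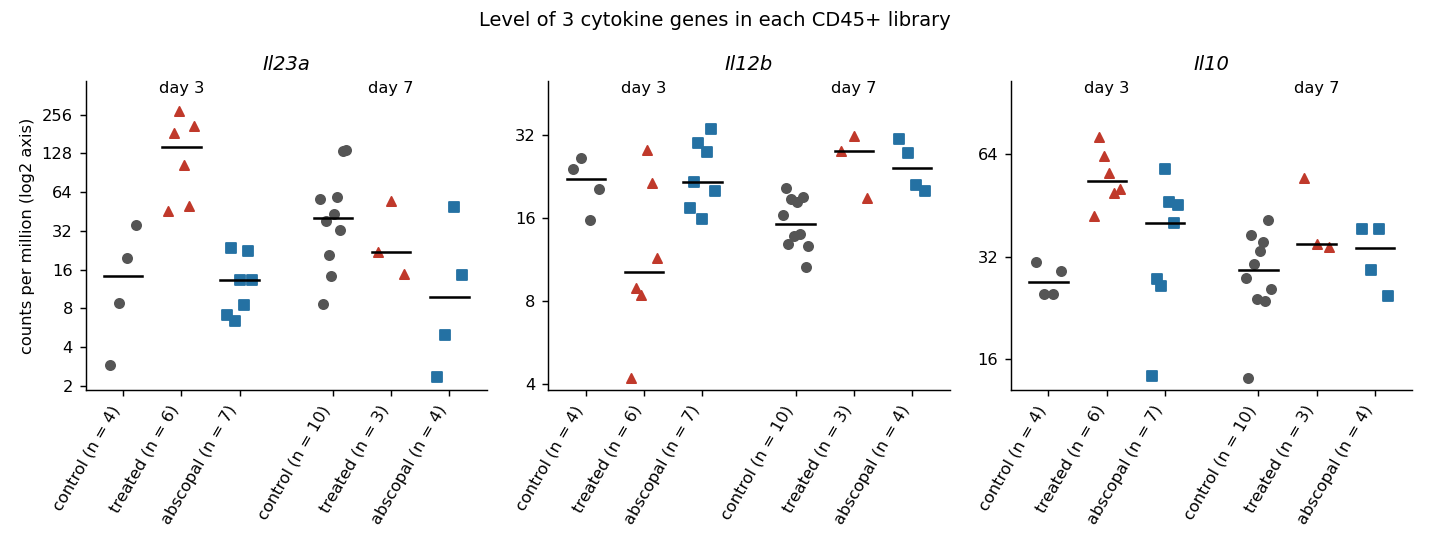
CPM (log2 axis) of Il23a, Il12b and Il10 in each CD45+ library by group and day, with a horizontal line at the group median. The 6 treated libraries of day 3 sit at 45.5 to 272 CPM for Il23a, above the control (2.89 to 35.5) and abscopal (6.34 to 23.7) libraries, whereas the groups of day 7 overlap.

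Il12b, the p40 chain that IL-23 and IL-12 share, did not follow Il23a. On day 3 the 4 control libraries held 24.1, 26.5, 15.7 and 20.4 CPM. The 6 treated libraries held 4.21, 8.89, 8.44, 28.2, 21.4 and 11.5 CPM, and the 7 abscopal libraries ranged from 15.8 to 33.6 with a median of 21.6. The groups overlapped, with 4 of the 6 treated libraries below every control and every abscopal library and 1 above every control library. The log2 fold change was -0.42 ± 0.34 for treated against control, -0.64 ± 0.30 for treated against abscopal and 0.22 ± 0.32 for abscopal against control tumors.

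On day 7 Il12b ranged from 10.6 to 20.6 CPM in the 10 control libraries, with a median of 15.2. The 3 treated libraries held 28.1, 31.9 and 18.9 CPM and the 4 abscopal libraries 31.0, 27.5, 21.1 and 20.1 CPM. Of the treated libraries 2 of 3, and of the abscopal libraries 3 of 4, were above every control library. The log2 fold changes against control were 0.73 ± 0.20 for treated and 0.74 ± 0.19 for abscopal tumors, contrasts that share the control libraries, and -0.00 ± 0.23 for treated against abscopal tumors.

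The 2 subunits of IL-23 were set against each other within each library as the log2 ratio of Il23a to Il12b counts. QuantSeq gives 1 tag per transcript, so counts do not grow with transcript length, but how well each gene is captured is unknown and the ratio is compared between libraries only. On day 3 the mean ratio was 3.35 ± 1.498 (SD, n = 6) in treated, -0.88 ± 1.78 (n = 4) in control and -0.94 ± 0.84 (n = 7) in abscopal tumors. It was above 0 in 6 of 6 treated libraries, 2 of 4 control libraries and 1 of 7 abscopal libraries. The lowest treated value, 1.22, was above the highest control value, 0.80. On day 7 the mean was 1.34 ± 1.51 (n = 10) in control, 0.02 ± 0.66 (n = 3) in treated and -1.36 ± 2.18 (n = 4) in abscopal tumors, with overlapping ranges. Over the 17 libraries of day 3, Pearson's r between the log2 CPM of Il23a and Il12b was -0.47, and -0.04 once group means were removed. On day 7 these values were -0.58 and -0.46.

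**Figure D2:**
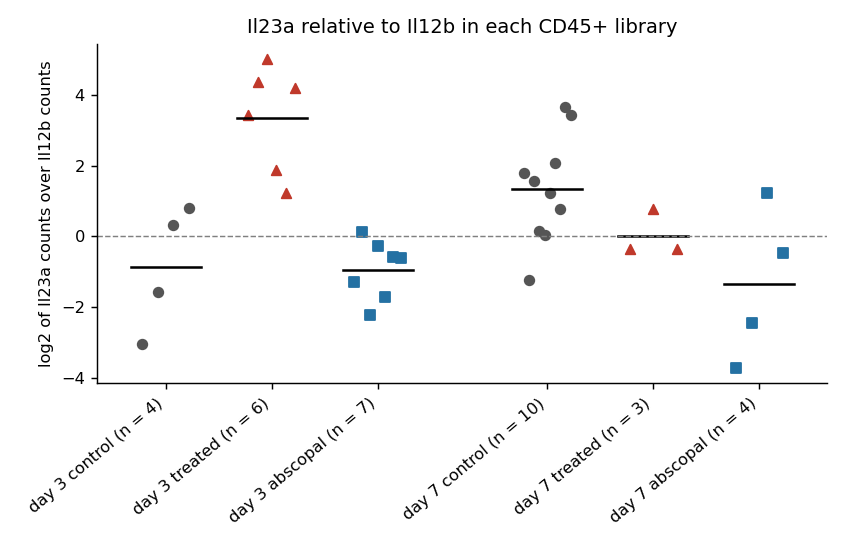
Log2 ratio of Il23a counts to Il12b counts in each CD45+ library by day and group, with a line at the group mean and a dashed line where the counts are equal. Treated libraries of day 3 lie between 1.22 and 5.01, above the control (-3.06 to 0.80) and abscopal (-2.24 to 0.14) libraries.

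Il12a, the p35 chain particular to IL-12, had 0 to 5 counts in each CD45+ library and was at 0 in 18 of 34. All 28 of its counts over both days made 0.47 CPM, and only 2 libraries held more than 3 counts. On day 3 its counts summed to 1 in control, 9 in treated and 11 in abscopal tumors, or 0.15, 0.995 and 0.81 CPM. It did not pass the filter on low counts, and at this depth no difference between groups was tested.

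Ebi3 and Il27, the chains of IL-27, were also near the limit of detection in CD45+ cells. Ebi3 had 0 to 8 counts a library and 2.22 CPM over all 34 libraries. Its means on day 3 were 2.78 ± 0.85 CPM (SD, n = 6) in treated, 2.49 ± 1.01 (n = 4) in control and 1.25 ± 0.76 (n = 7) in abscopal tumors, with overlapping ranges. Il27 had 0 to 4 counts a library, 0.58 CPM in all, and was at 0 in 12 of 34 libraries. Neither passed the filter, so that 3 of the 6 genes (Il23a, Il12b and Il10) entered the fit.

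Il10 differed less between groups than Il23a and with less spread. On day 3 the 4 control libraries held 30.8, 24.8, 24.9 and 29.0 CPM and the 6 treated libraries 42.1, 71.7, 63.3, 56.3, 49.3 and 50.6. The 7 abscopal libraries ranged from 14.2 to 58.0 CPM with a median of 40.3. Every treated library was above every control library, whereas abscopal libraries overlapped with both groups. The log2 fold change was 1.27 ± 0.28 for treated against control, 0.74 ± 0.23 for treated against abscopal and 0.53 ± 0.27 for abscopal against control tumors.

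On day 7 the 10 control libraries ranged from 14.1 to 41.0 CPM of Il10 with a median of 29.2. The 3 treated libraries held 54.4, 34.97 and 34.1 CPM and the 4 abscopal libraries 38.6, 29.2, 38.7 and 24.5 CPM. Treated replicate 1 was the only library of these 2 groups above every control library. The log2 fold changes were 0.48 ± 0.21 for treated against control, 0.19 ± 0.21 for abscopal against control and 0.30 ± 0.26 for treated against abscopal tumors.

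**Figure D3:**
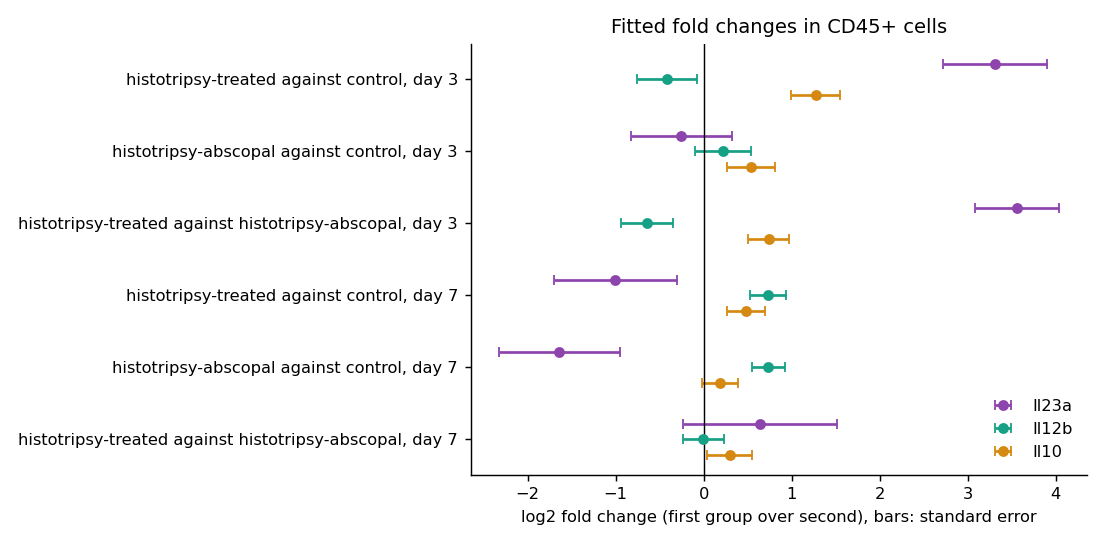
Log2 fold change (horizontal axis) with its standard error (bars) of Il23a, Il12b and Il10 in the 6 group contrasts of CD45+ cells. The 2 contrasts of treated tumors on day 3 place Il23a at 3.31 and 3.56, and no other fitted value of the 3 genes is above 1.27.

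The background of these values differed by day. On day 3, 801 of 10264 genes (7.80%) passed an adjusted p of 0.05 for treated against control tumors in the edgeR quasi-likelihood test, 638 of them higher (6.22%) and 163 lower. For treated against abscopal tumors 558 genes (5.44%) passed, 500 higher (4.87%) and 58 lower. Il23a and Il10 were among the genes called in the first contrast and Il23a in the second, and nothing is read from these counts because the contrast chose the genes. Scaled by library totals instead of TMM factors, the central log2 fold change (the median over the genes tested) for treated against control moved to -0.22 and the split became 413 higher and 650 lower. Il23a was at 3.004 on that scale. For abscopal against control tumors on day 3, 0 genes (0.0%) passed in edgeR and 12 in DESeq2, with 796 at an unadjusted p under 0.05. On day 7, 0 of 10817 genes (0.0%) passed in each of the 3 contrasts in edgeR and in DESeq2, with 344 (treated against control), 800 (abscopal against control) and 290 (treated against abscopal) at an unadjusted p under 0.05.

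The CD45- libraries held next to none of these transcripts. Il23a had 46 counts over 36 CD45- libraries, or 0.53 CPM, against 2935 counts and 49.7 CPM over 34 CD45+ libraries. No CD45- library had more than 4 counts of Il23a, and 1 had more than 3. Its CD45- mean on day 3 was 0.64 ± 0.35 CPM (SD, n = 7) in treated, 0.33 ± 0.42 (n = 4) in control and 0.45 ± 0.30 (n = 7) in abscopal tumors, all within a few counts of each other. Il12b had 3 counts, Il10 had 2 and Ebi3 had 1 in all CD45- libraries together. Il12a and Il27 had 0 of 87525003 counts, which allows a level of up to 0.0343 CPM (3 counts).

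The pathway genes below, like the members, were chosen with earlier results of these data known, so their adjusted p-values are no independent support. Among the 4 receptor genes tested, the largest difference on day 3 was in Il10rb, the shared beta chain of the receptors for IL-10 and its relatives. Il10rb rose on day 3 in treated tumors, from 125 ± 11.8 CPM (SD, n = 4) in controls to 240 ± 74.2 (n = 6), a log2 fold change of 1.20 ± 0.23 with an adjusted p of 0.00399. Against abscopal tumors (127 ± 11.9 CPM, n = 7) the log2 fold change was 1.09 ± 0.19 with an adjusted p of 0.00179. It was called in both contrasts under all 24 alternatives of each. Il10rb overlaps another annotated gene, Gm21970, as Il10ra overlaps Gm20612 and Mir7086, Il12rb2 overlaps Serbp1 and Il27ra overlaps Palm3, and reads of such genes cannot be told apart. Il10ra, the chain that binds IL-10, was at 107 ± 15.2 CPM in treated and 101 ± 12.6 in control tumors, and its difference (log2 0.32 ± 0.15) did not pass, with an adjusted p of 0.194.

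Il12rb1, the receptor chain that IL-12 and IL-23 share, was at 20.6 ± 10.6 CPM (SD, n = 6) in treated and 25.9 ± 3.80 (n = 4) in control tumors of day 3 and was not called (log2 -0.15 ± 0.28, adjusted p = 0.792 in edgeR). The chains particular to each cytokine had fewer counts. Il23r had 0 to 3 counts a library on day 3 and 0 to 4 on day 7, and Il12rb2 had 0 to 23 and 0 to 9. Il27ra had at most 15 counts. These 3 of the 7 receptor genes did not pass the filter, and 1 of the 4 tested, Il10rb, was called for treated against control tumors. The median log2 fold change of the 4 was 0.15, beside -0.01 for all genes.

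None of the 6 kinase and STAT genes was called in any contrast. Stat3, through which IL-10 and IL-23 signal, was at 707 ± 183 CPM in treated and 885 ± 35.9 in control tumors of day 3 (log2 -0.11 ± 0.17, adjusted p = 0.731 in edgeR). The median of the list for treated against control was -0.16.

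Of 10 type 17 genes 2 were tested (Ccr6 and Il17ra) and neither was called, while the other 8 had too few counts to test. Il17a, the cytokine for which type 17 cells are named, had 3 counts over the 17 CD45+ libraries of day 3 and 6 over those of day 7, and Il22 had 1 count on each day. Of 5 type 1 genes, all tested, 0 were called for treated against control tumors and 1 fell against abscopal tumors. This was Il18r1, a chain of the IL-18 receptor, with a log2 fold change of -0.64 ± 0.19 and an adjusted p of 0.0457, called in 8 of 24 alternatives. Ifng, encoding interferon gamma, was at 97.5 ± 50.5 CPM (SD, n = 6) in treated and 146 ± 24.8 (n = 4) in control tumors of day 3, an adjusted p of 0.385 in edgeR.

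Of 7 genes that IL-10 is known to induce in macrophages, all were tested, 2 rose in treated against control tumors of day 3 and 7 had a log2 fold change above 0. Il1rn, the secreted antagonist of the IL-1 receptor, rose from 861 ± 159 to 1693 ± 367 CPM, a log2 fold change of 1.23 ± 0.24 with an adjusted p of 0.00401. Nfil3, a transcription factor, rose by 0.51 ± 0.15 on the log2 scale with an adjusted p of 0.0344, a call that held in 15 of 24 alternatives. Socs3, a feedback inhibitor of cytokine signaling, had a log2 fold change of 0.45 ± 0.36 and an adjusted p of 0.480. The median of the list was 0.45, beside -0.01 for all genes, of which 7.80% were called. Several of these genes, Il1rn and Socs3 among them, are also induced by other inflammatory signals. Against abscopal tumors 1 of the 7 was called, Il1rn, at 1.19 ± 0.20 with an adjusted p of 0.00127.

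Of 10 transcription factors that act on these cytokine genes, 2 rose in treated against control tumors of day 3. Nfkbiz, the nuclear NF-kappaB partner IkappaB zeta, was at 901 ± 126 CPM (SD, n = 4) in control and 1680 ± 634 (n = 6) in treated tumors, a log2 fold change of 1.18 ± 0.27 with an adjusted p of 0.0100. Cebpb, a C/EBP factor of myeloid cells, rose by 0.69 ± 0.20 on the log2 scale with an adjusted p of 0.0338, a call that held in 15 of 24 alternatives. Rel, the NF-kappaB subunit c-Rel, had a log2 fold change of 0.49 ± 0.19 and did not pass, with an adjusted p of 0.118. Against abscopal tumors Nfkbiz was higher by 1.16 ± 0.22 on the log2 scale with an adjusted p of 0.00338, and the other 9 factors were not called. The 4 IL-10 family relatives (Il19, Il20, Il24 and Il22ra2) had at most 2 counts in any CD45+ library and were not tested.

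In all, 5 of the 34 pathway genes tested were called for treated against control tumors and 4 for treated against abscopal tumors, 14.7% and 11.8% of them beside the 7.80% and 5.44% of all genes. For abscopal against control tumors of day 3, and in every contrast of day 7, 0 of the 34 were called in edgeR, with 1 to 4 at an unadjusted p under 0.05. Without treated replicate 3 the counts on day 3 were 3 and 3, of Il10rb, Il1rn and Nfkbiz in each contrast. Nothing is read from the pathway shares, since the lists were chosen with earlier results of these data known.

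**Figure D4:**
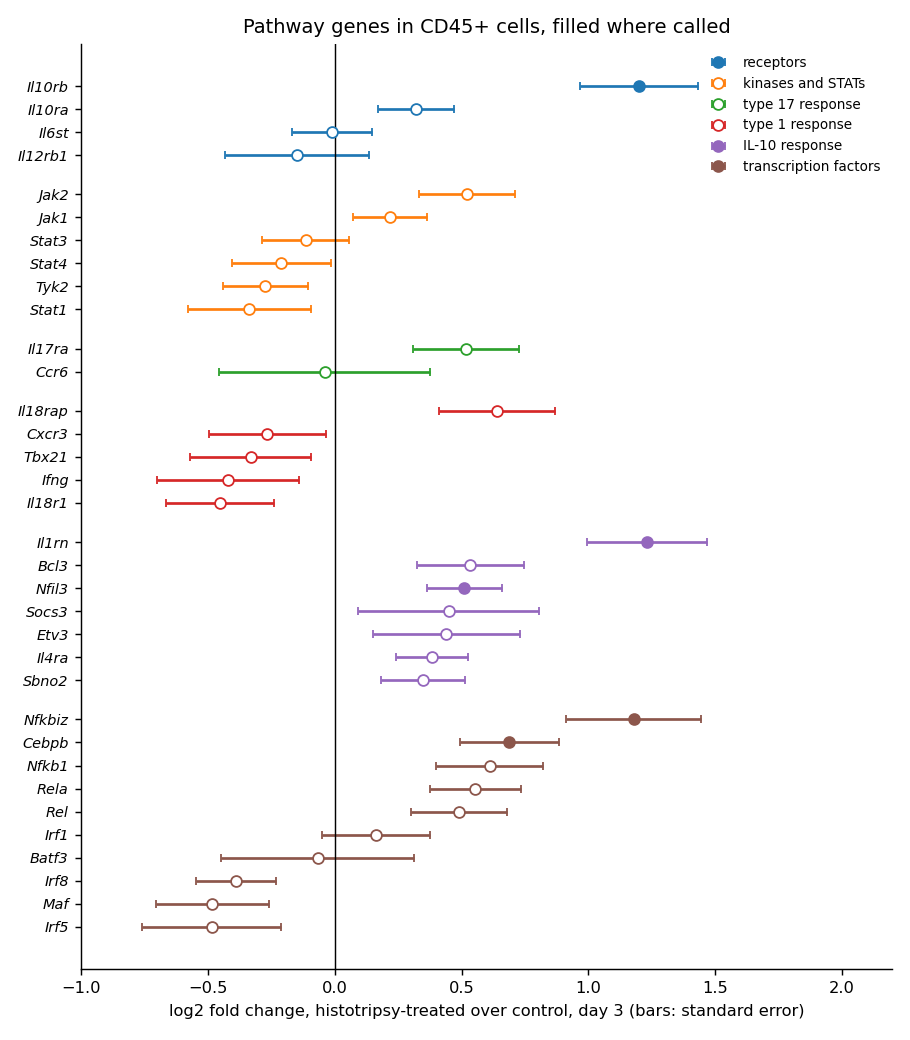
Log2 fold change with standard error of the 34 tested pathway genes for treated over control tumors in CD45+ cells of day 3, colored by list, with filled circles where the adjusted p is under 0.05. Il10rb, Il1rn and Nfkbiz lie between 1.18 and 1.23, Cebpb at 0.69 and Nfil3 at 0.51.

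Markers of other cell types moved with the treated group. In bulk libraries a change in the number of cells of a type and a change in RNA per cell cannot be told apart. The summed level of 7 neutrophil markers on day 3 was 360 to 2730 CPM in control, 1299 to 26818 in treated and 785 to 2741 in abscopal tumors. All 7 were detected in each group, and 4 of the 6 tested were called higher in treated than in control tumors. The summed level of 7 T cell markers was 1331 to 1809 CPM in control and 282 to 1153 in treated tumors, with 3 of 7 called lower. The 8 monocyte and macrophage markers were at 1905 to 2158 CPM in control and 970 to 2629 in treated tumors, with 0 of 8 called. Of the dendritic cell lists, 2 of 3 plasmacytoid markers were called lower (131 to 353 CPM in treated, 349 to 496 in control and 201 to 335 in abscopal tumors, median log2 fold change -1.16), and 0 of 5 conventional and 0 of 4 mature markers were called. The part of these cell types in the levels of Il23a, Il10, Il10rb, Il1rn and Nfkbiz was not tested.

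Within the 6 treated libraries of day 3, Il23a and the neutrophil sum had a Pearson's r of 0.909 (exact permutation p = 0.00833) and a Spearman's rho of 0.886 (exact permutation p = 0.0333) two-sided, on TMM-scaled log2 values. On CPM from library totals, the scale of the values printed above, r was 0.881. Without the 2 libraries farthest from the median of the markers r was 0.882. Over the 7 abscopal libraries of day 3 r was -0.01 (exact permutation p = 0.979) and rho 0.14 (exact permutation p = 0.783), and over the 10 control libraries of day 7 r was 0.565 (permutation p = 0.0926) and rho 0.527 (permutation p = 0.123). The latter r was 0.08 without 2 libraries and rests on replicates 9 and 10. The abscopal r was 0.60 without 2 libraries. Il10 and the neutrophil sum had an r of 0.904 (exact permutation p = 0.0111) and a rho of 0.886 (exact permutation p = 0.0333) in the treated libraries, with r at 0.735 on CPM from library totals and at 0.974 without 2 libraries. These are among 117 relations of the 3 fitted genes with 13 marker lists in 3 groups of at least 6 libraries, and 0 of them passed after Benjamini-Hochberg adjustment. The adjusted values for r were 0.163 for Il23a and 0.186 for Il10 in treated tumors. Il12b had an r of -0.06 with the neutrophil sum in the treated libraries (exact permutation p = 0.931) and of -0.83 in the 10 controls of day 7 (permutation p = 0.0054, adjusted 0.126).

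**Figure D5:**
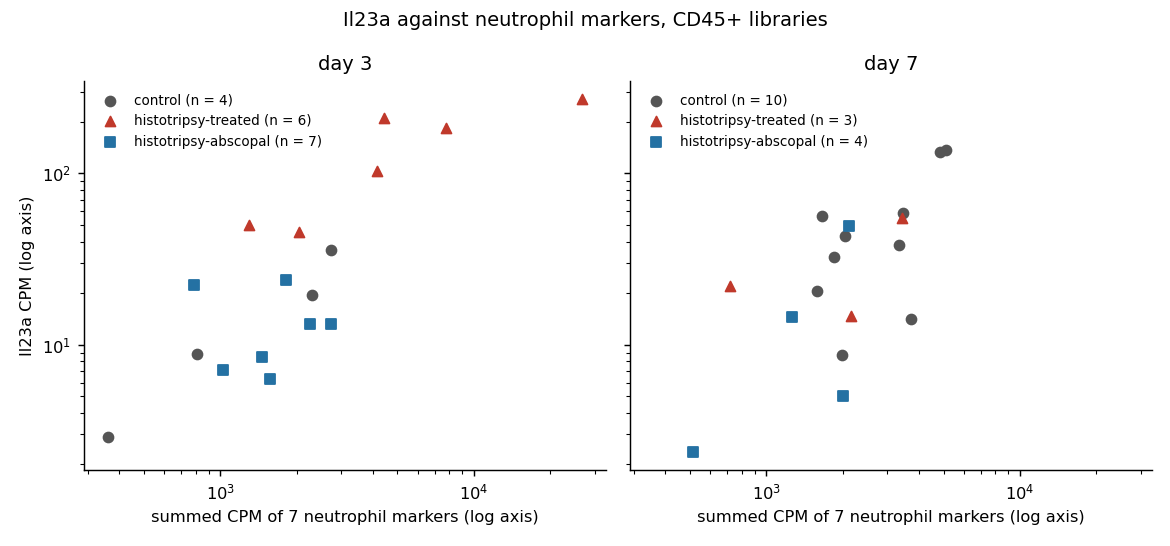
Il23a CPM against the summed CPM of 7 neutrophil markers in each CD45+ library, both on log axes, on day 3 and day 7, with a symbol for each group. Treated replicate 3 of day 3 is the point farthest to the right, at 26818 and 272 CPM, and control replicates 9 and 10 of day 7 are the highest points of day 7.

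The genes whose level over the 17 CD45+ libraries of day 3 was most like that of Il23a were Gm25703, an annotated small nuclear RNA at 12.0 CPM in treated and under 1 CPM in the other groups (Pearson's r = 0.979), Ier3, an immediate early response gene (0.959), Clec4e, the macrophage-inducible lectin receptor Mincle (0.955), Ifrd1 (0.954) and Olr1, the oxidized lipoprotein receptor LOX-1 (0.951). These values are descriptions over libraries that share the treated group, and with group means removed r was 0.833 to 0.927 for the 5. Over the 17 libraries of day 7 r was 0.853 for Clec4e and 0.552 to 0.648 for Ier3, Ifrd1 and Olr1, while Gm25703 did not pass the filter. Clec4e was at 461 CPM in control, 1367 in treated and 470 in abscopal tumors of day 3.

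For Il12b the most alike were Nifk (r = 0.880), Supt16 (0.850), Ftsj3 (0.847), Pnn (0.832) and H4c4 (0.813), with r of 0.02 to 0.25 on day 7. For Il10 they were Lrrc8d (0.866), Ptgs1, the cyclooxygenase COX-1 (0.860), Skil (0.857), Fem1c (0.850) and Id1 (0.846), with r of -0.10 to 0.47 on day 7 for the 4 tested there. With group means removed, r on day 3 was 0.757 to 0.825 for the genes most like Il12b and 0.639 to 0.813 for those most like Il10. Il23a and Il10 themselves had an r of 0.73 on day 3, and of 0.37 with group means removed.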

How the data were processed

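From B16F10 tumors of the 3 groups, the authors sorted CD45+ and CD45- cells, and QuantSeq libraries were made by the authors. Reads were trimmed with Trim Galore (0.5.0), aligned with STAR (2.6.0) and, per the labels, counted per gene with featureCounts. The strand setting is not given in the sources used here. The deposited values are whole-number counts per gene, not normalized. Every column of the 4 tables matched a labelled sample. An unnamed line of each CD45+ table equals the column totals and was left out: it holds as many counts as all named genes together. No pair of libraries agreed within sampling noise (smallest chi-square per degree of freedom 2.09).

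The day 3 and day 7 CD45+ tables were fitted separately with edgeR (4.0.16; filterByExpr with a minimum count of 10 and total of 15, TMM, quasi-likelihood test, Benjamini-Hochberg over all genes tested, threshold 0.05), with all groups of a day in the fit. The fit was tested on simulated data. Printed CPM values use library totals. Correlations with marker lists used log2(CPM + 1) with CPM on TMM-scaled library totals, and correlations between genes TMM-scaled log2 CPM with a prior count of 2; permutations were exact below 10 libraries and numbered 100000 otherwise. The members, the 49 pathway genes in 7 lists and the 13 marker lists were chosen with earlier results of these data known. Named were the 6 members, the genes called in each list (at most 4 a contrast, by p), 8 defining genes and the 5 genes most like each fitted member. Alternatives were DESeq2 (1.42.0), limma-voom (3.58.1), library totals, no filter, only the compared groups, a replicate block, libraries of at least 1000000 counts, each library left out and, chosen after seeing the data, 2 melanoma-rich or 2 neutrophil-rich libraries left out. R (4.3.3), Python (3.11.15) and scipy (1.17.1) were used.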

Additional observations from a re-analysis of the deposited data

Results flagged for a closer look

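The summed level of the 7 neutrophil markers in histotripsy-treated CD45+ libraries of day 3 was flagged because its highest value, 26818 CPM in replicate 3, stood farther from the next than Dixon's 95% critical value allows for 6 libraries. The same library had the highest Il23a level, 272 CPM. Over 80 groups of values tested in this way, chance flags about 1 in 20.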

How the results depend on the processing

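Over 441 recomputed log2 fold changes of Il23a, Il12b and Il10, 439 moved by less than 1 SD of the libraries. The exceptions were Il23a on day 7 without abscopal replicate 3. With 1 library left out, Il23a ranged from -3.16 to -1.15 for abscopal against control and from 0.024 to 2.14 for treated against abscopal tumors of day 7. Over all alternatives the latter contrast kept its direction in 24 of 25, with a lowest value of -0.017. The day 3 difference of Il23a in treated tumors kept its direction in all 24 alternatives of each contrast. The genes called on day 3 for treated against control and treated against abscopal tumors (801 and 558) numbered 1244 and 1022 without the filter on low counts and 451 and 365 with only the 2 groups in the fit. Leaving out 1 library gave 334 to 1103 and 264 to 862. The first count was 525, 334 and 361 without control replicates 2, 3 and 4, and the second was 264 and 862 without treated replicates 3 and 5. Abscopal against control tumors on day 3 gave 12 genes with DESeq2, 153 without the filter and 0 to 1 with 1 library left out (1 without control replicate 2). Without the filter the day 7 counts were 32 (treated against control), 102 (abscopal against control) and 17 (treated against abscopal), in place of 0. The pathway genes called for treated against control (5) numbered 8 with DESeq2, 3 with library totals, 3 without the filter, 3 with the 2 groups only and 3 to 8 with 1 library left out, being 3 without control replicate 2, 3 or 4 or treated replicate 3 and 8 without treated replicate 4 or 5. Those for treated against abscopal tumors (4) numbered 3 to 8, with 8 without treated replicate 5. The causes were not tested. Without abscopal replicates 1 and 4, rich in melanoma markers, 887 and 477 genes were called on day 3. With 4 libraries under 1000000 counts left out, Il23a on day 7 was at -1.79 for treated against control tumors.

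Over all pairs of groups, same-numbered libraries deviated together with correlations of -0.15 to 0.40 on day 3 and -0.25 to 0.41 on day 7. Pairs of treated and abscopal libraries, which could share a mouse, were at 0.01 to 0.36 on day 3 and 0.11 to 0.41 on day 7. No label ties these numbers to mice, so they were not taken as pairing. Whether treated and abscopal libraries are paired was not settled by this check. A library correlated best with its own number in 11 of 28 comparisons on day 3 and 8 of 20 on day 7. With the replicate block, 1256 genes and 9 pathway genes were called for treated against control tumors on day 3, 497 and 4 for treated against abscopal and 1 gene for abscopal against control tumors, and 0 in each contrast of day 7.

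Depth limited Il12a, Il27 and Ebi3, which had 0 to 8 counts in each CD45+ library.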

Other observations

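Within groups, Il23a had a negative r with NK and T cell markers in treated libraries of day 3 and control libraries of day 7. In abscopal libraries of day 3, r was positive for T cell markers and small for NK cell markers. In the 6 treated libraries of day 3, Il23a and the summed level of 4 NK cell markers had a Pearson's r of -0.79 (exact permutation p = 0.00278) and a Spearman's rho of -0.94 (exact permutation p = 0.0167), with -0.93 for r without the 2 libraries farthest from the marker median. Over the 7 abscopal libraries of day 3 r was 0.03 (exact permutation p = 0.969) and rho -0.14 (exact permutation p = 0.783). This r was -0.39 without 2 libraries. In the 10 control libraries of day 7 r was -0.85 (permutation p = 0.00242) and rho -0.84 (permutation p = 0.00383), with -0.62 for r without 2 libraries. The summed level of 7 T cell markers had an r of -0.83 with Il23a in those controls (permutation p = 0.00353) and a rho of -0.78 (permutation p = 0.0100). In the 6 treated libraries of day 3 the T cell r was -0.61 (exact permutation p = 0.203) and rho -0.49 (exact permutation p = 0.356), and in the 7 abscopal libraries r was 0.60 (exact permutation p = 0.144) and rho 0.46 (exact permutation p = 0.302). Without 2 libraries these T cell r were -0.59 in the controls, -0.33 in treated and 0.78 in abscopal libraries. After adjustment over the 117 relations the lowest p for r among these was 0.103, and none passed. No test compared the groups.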
